A study of Mus musculus with 9 samples.

Results

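The 9 genes described here encode the factors that hepatocytes use to switch their genes on and off, together with a pair of repressors that follow growth hormone. They are *Onecut1*, *Foxa1*, *Foxa2*, *Foxa3*, *Cebpa*, *Cebpb*, *Prox1*, *Bcl6* and *Cux2*. They were found by symbol in the platform annotation, among 19505 distinct symbols on the array, and each had 1 transcript cluster, the probe group that measures 1 gene. RNA of whole livers from males was hybridised to Clariom S arrays, 3 arrays in each of 3 groups, and the design text gives 3 mice a group. Wild-type C57BL/6JHamSlc-+/+ mice received vehicle, C57BL/6JHamSlc-ob/ob mice received vehicle, and further ob/ob mice received an extract of *Vigna umbellata* (rice bean) at 100 mg/kg body weight. The animals were obtained at 6 weeks of age and ate standard chow, and the extract was given by oral gavage over 42 days. The ob/ob mouse lacks functional leptin in the whole body and becomes obese, so the genotype is not specific to liver. Extract-treated wild-type mice were not analysed here.

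Hepatocyte identity rests on a small set of factors that bind one another's genes and the genes of albumin, clotting proteins and gluconeogenic enzymes. Pioneer factors of the FOXA family open chromatin, HNF6 (encoded by *Onecut1*), C/EBP-alpha and HNF4-alpha act with them, and C/EBP-beta and PROX1 adjust that programme to inflammation, hormones and metabolic state. BCL6 and CUX2 belong to a different circuit. The pattern of pituitary growth hormone release differs between the sexes and acts on the liver through STAT5; BCL6, a repressor that competes with STAT5, is the more abundant in males, and CUX2, a repressor of male-biased genes, is typical of females. Both *Onecut1* and *Cux2* are themselves growth hormone responsive in rodent liver, and their proteins belong to the wider cut homeodomain group.

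Promoter sequence shows which of these factors' recognition letters sit in front of the genes themselves. RefSeq (GRCm38.p6) gave 14 windows of 250 bases before an annotated start, covering all 9 genes. Each was searched on both strands for the STAT motif TTCNNNGAA, which reads the same on both strands, the HNF6 motif ATCAAT, the FOXA motif TGTTTAC and the C/EBP motif TTGCNNAA. The windows below were chosen because 4 of them are the windows that held any of these motifs, and the last belongs to the gene with the largest difference between groups. Capitals mark the match; all are written 5′ to 3′ on the strand of the gene, and the last base lies next to the start.
Bcl6 upstream start, chr16:23988853-23989102, minus strand: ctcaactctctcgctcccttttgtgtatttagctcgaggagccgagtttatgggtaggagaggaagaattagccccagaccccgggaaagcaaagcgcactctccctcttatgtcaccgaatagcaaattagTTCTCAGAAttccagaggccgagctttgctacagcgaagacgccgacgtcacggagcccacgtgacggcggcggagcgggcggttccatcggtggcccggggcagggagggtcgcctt
Bcl6 downstream start, chr16:23981284-23981533, minus strand: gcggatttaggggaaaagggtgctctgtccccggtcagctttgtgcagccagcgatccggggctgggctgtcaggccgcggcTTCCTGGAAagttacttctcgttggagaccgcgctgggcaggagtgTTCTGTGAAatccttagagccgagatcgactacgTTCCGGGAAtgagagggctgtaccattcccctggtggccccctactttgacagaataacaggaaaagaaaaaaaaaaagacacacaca
Foxa1, chr12:57546112-57546361, minus strand: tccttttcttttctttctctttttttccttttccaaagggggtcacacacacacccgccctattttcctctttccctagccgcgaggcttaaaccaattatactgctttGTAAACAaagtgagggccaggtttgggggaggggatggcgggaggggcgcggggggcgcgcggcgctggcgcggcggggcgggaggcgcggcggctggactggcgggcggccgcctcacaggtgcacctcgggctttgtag
Foxa2 upstream start, chr2:148046970-148047219, minus strand: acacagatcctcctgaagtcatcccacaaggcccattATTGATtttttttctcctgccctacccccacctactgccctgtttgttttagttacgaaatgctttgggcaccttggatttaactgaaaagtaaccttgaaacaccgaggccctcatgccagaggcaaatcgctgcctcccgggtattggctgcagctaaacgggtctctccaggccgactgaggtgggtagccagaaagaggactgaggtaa
Onecut1, chr9:74861671-74861920, plus strand: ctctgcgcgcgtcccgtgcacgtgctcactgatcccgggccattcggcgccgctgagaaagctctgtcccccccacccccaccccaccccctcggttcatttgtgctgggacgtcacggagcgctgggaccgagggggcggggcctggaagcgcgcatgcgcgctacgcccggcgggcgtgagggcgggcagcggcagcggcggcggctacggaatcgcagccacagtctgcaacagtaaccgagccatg

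*Bcl6* was the member with STAT letters in front of it. Its upstream start had 1 match, at 118 to 110 bases before the start, and its downstream start had 3, at 168 to 160, 122 to 114 and 88 to 80 bases. Of 32851 promoter windows of the same length, 7.02% held at least 1 such match and 9 windows (0.0274%) held 3 or more. *Foxa1* held a FOXA motif at 141 to 135 bases, a motif present in 3.17% of windows, and the upstream start of *Foxa2* held an HNF6 motif at 213 to 208 bases, present in 6.72%. No C/EBP motif, found in 9.56% of all windows, was present in the members' windows. A match is a run of letters and says nothing of whether a factor was bound in these livers, and the window of *Onecut1* lacked these letters only within its 250 bases.

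Values are the authors' deposited log2 intensities after normalization, so 1 unit is nominally a doubling, and no level of one gene is set against that of another. Because no detection call was used, each value was set beside the 1091 clusters of olfactory receptors, genes silent in liver, on the same array; the upper end of their middle 95% lay between 5.33 and 6.62 log2 across arrays. All 9 arrays of *Onecut1*, *Cebpa* and *Prox1* were above it. *Cux2* was under it on 8 arrays, *Bcl6* and *Foxa1* on 5 each, *Foxa2* and *Foxa3* on 2 each and *Cebpb* on 1. A difference in a gene under that mark may understate the true one.

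Hepatocyte markers were present on every array. The mean of their 10 clusters ran from 18.00 to 18.23 log2 on wild-type, 17.16 to 18.08 on ob/ob vehicle and 17.40 to 17.95 on extract arrays. In ob/ob vehicle against wild type 8 of the 10 differences were negative and 2 positive. By limma 3 were lower at an unadjusted p under 0.05 and 0 passed an adjusted p under 0.05. Over all clusters 17.0% had an unadjusted p under 0.05 with a fold over 1.1, in either direction. In bulk liver, fewer cells of a type and less RNA per cell cannot be told apart. A pair of arrays stood apart from the rest. Wild-type vehicle 3 correlated at 0.955 with both arrays of its group and ob/ob vehicle 3 at 0.948 and 0.952, against 0.980 to 0.990 for other pairs within groups. Their interquartile ranges were the narrowest, 3.01 and 3.26 log2 against 3.36 to 3.85. On ob/ob vehicle 3, 7 of the 9 members lay below the mean of the other two arrays of the group, with a median of -1.15 against 0.06 for all clusters. On wild-type vehicle 3, 7 of 9 lay below as well, with a median of -0.95 against -0.04 for all clusters. Member results and list counts are also given without these 2 arrays where that alters a call or the direction.

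**Figure D1:**
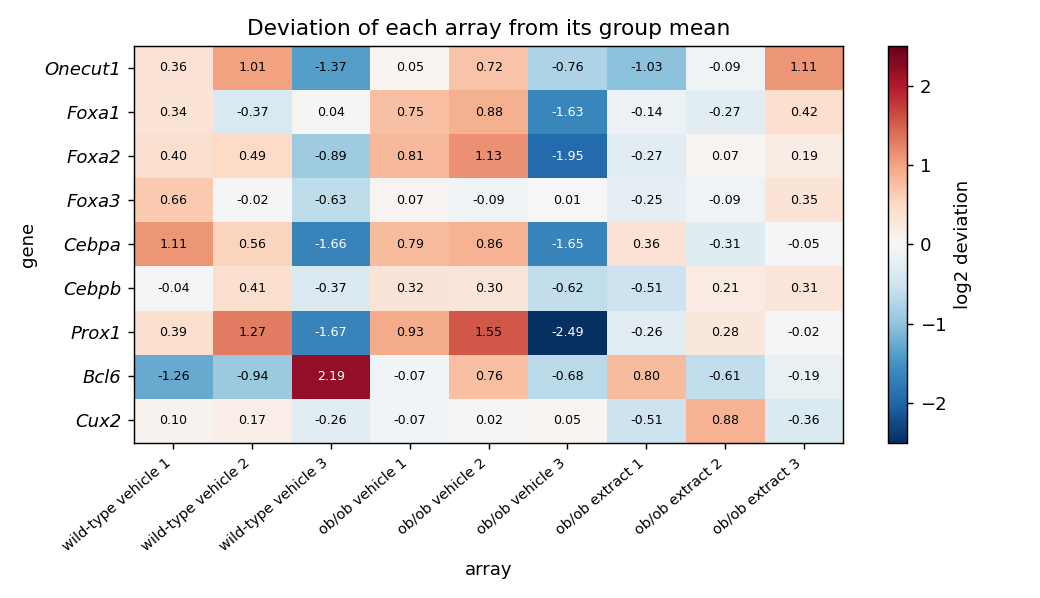
Deviation of each array from its group mean (log2, colour and printed value) for the 9 genes (rows) on the 9 arrays (columns). Blue cells gather on wild-type vehicle 3 and ob/ob vehicle 3, while *Bcl6* on wild-type vehicle 3 is the reddest cell, at 2.19.

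Onecut1 encodes HNF6, a cut homeodomain factor that drives hepatocyte and biliary development and keeps adult genes of glucose, lipid and bile acid metabolism active. Its level was 11.52, 12.17 and 9.79 log2 in the 3 wild-type livers. In ob/ob livers given vehicle it was 7.71, 8.38 and 6.90, and in ob/ob livers given extract 7.49, 8.43 and 9.63. Every wild-type array was above every ob/ob array of either treatment, and the lowest wild-type value was on the array that stood apart.

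*Onecut1* fell by 3.50 log2 in ob/ob vehicle against wild-type liver (SE 0.67, 95% interval -4.98 to -2.01, n = 3 a group), 11.3-fold lower, with limma's Benjamini-Hochberg adjusted p = 0.0246. It was 1 of 9 members called lower at an adjusted p under 0.05, where 0.680% of all 22206 clusters were called lower and 2.28% higher; 0 of 9 members were called higher. The call was not held by every choice of arrays. It was lost without wild-type vehicle 1 (-3.32, adjusted p = 0.0522), wild-type vehicle 2 (-2.99, 0.107), ob/ob vehicle 1 (-3.52, 0.0858), ob/ob vehicle 2 (-3.86, 0.0531) or extract 2 (-3.50, 0.0527), and when only both groups' own arrays were fitted (0.0548). It was kept without both arrays that stood apart, at -3.80 with an adjusted p of 0.00240. The difference was negative under all of these settings.

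Between extract and vehicle in ob/ob liver, *Onecut1* differed by 0.85 log2 (SE 0.67, interval -0.63 to 2.34, adjusted p = 0.852 by limma). The groups overlapped, and the interval holds both no change and a large return towards wild type. Extract-treated ob/ob liver still lay 2.64 log2 below wild type as a mean (difference -2.64, interval -4.13 to -1.16), with groups that did not overlap, but the adjusted p was 0.105. That difference passed the threshold without wild-type vehicle 3 (-3.33, adjusted p = 0.0475), without both arrays that stood apart (-3.33, 0.00482) and with array weights, by which limma gives less influence to arrays that deviate (-3.01, 0.0114). The comparisons with wild type share the same 3 control arrays.

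**Figure D2:**
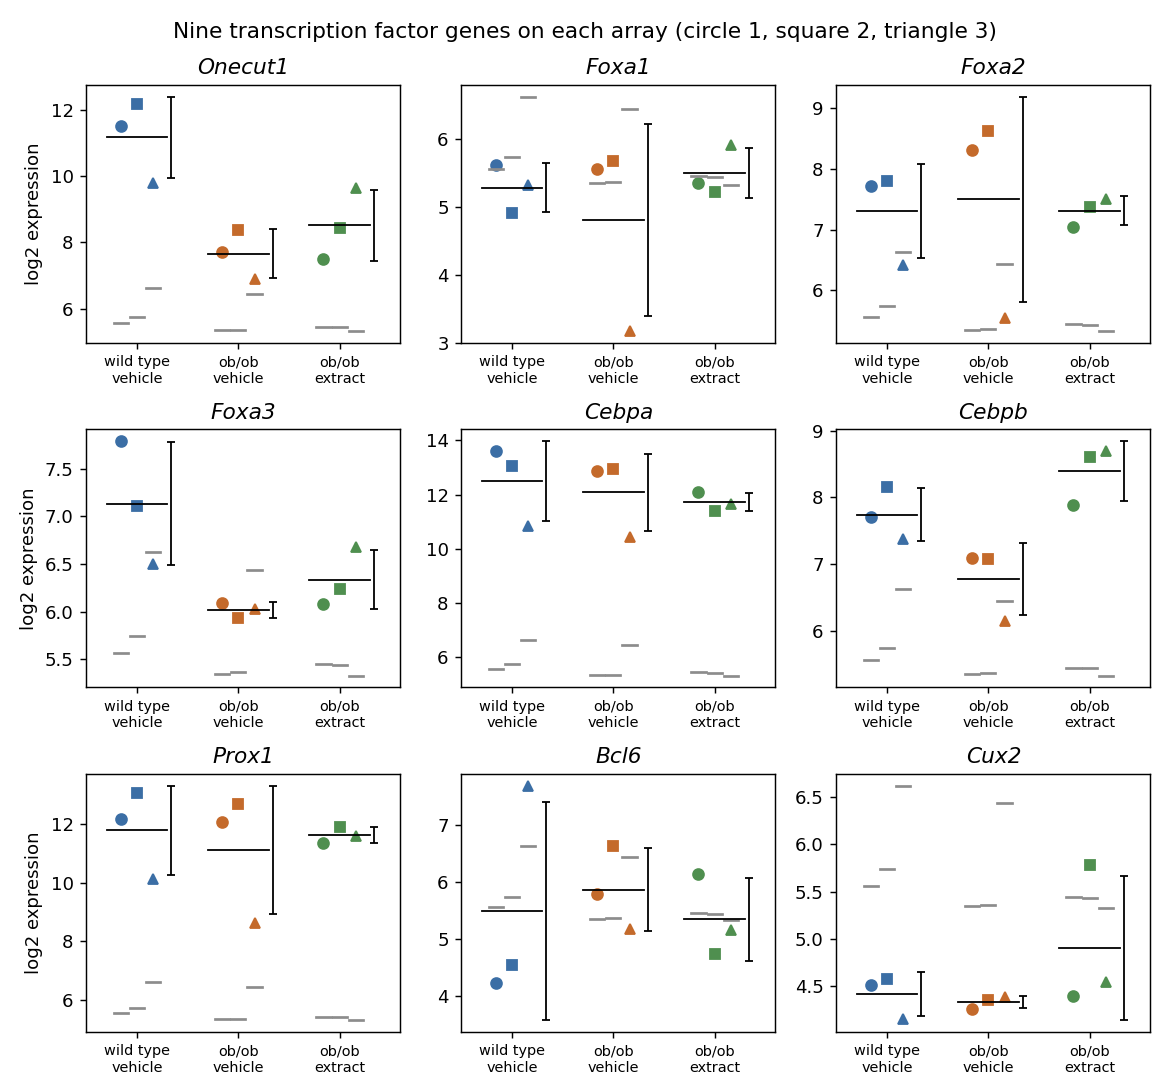
Expression (log2, vertical axis, a separate scale per gene) of each gene on each of 9 arrays, by group; circles, squares and triangles are replicates 1, 2 and 3, horizontal bars are group means, side bars span 1 SD either way, and grey ticks give the upper end of the olfactory receptor range on that array. *Onecut1* separates wild-type from ob/ob livers, *Cebpb* separates extract from vehicle among ob/ob livers, and most *Cux2* points lie under the grey ticks.

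FOXA proteins are the winged-helix pioneer factors of liver. *Foxa3*, whose product supports hepatic glucose output in fasting, was measured at 7.79, 7.11 and 6.50 log2 in wild-type liver. It was 6.09, 5.93 and 6.03 in ob/ob vehicle liver and 6.08, 6.24 and 6.68 in ob/ob extract liver. All wild-type values lay above all ob/ob vehicle values, but wild-type vehicle 3 and ob/ob vehicle 3 were under the olfactory receptor mark of their arrays. The difference of ob/ob vehicle from wild type was -1.12 log2 (SE 0.33, interval -1.84 to -0.39), with an unadjusted p of 0.00624 and an adjusted p of 0.107 by limma, so it was not called. It was called without both arrays that stood apart (-1.44, adjusted p = 0.0193) and with array weights (-1.26, 0.0171).

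With the extract, *Foxa3* differed from ob/ob vehicle by 0.32 log2 (interval -0.41 to 1.04, adjusted p = 0.886). Against wild type the extract group was at -0.80 log2 (interval -1.53 to -0.07, adjusted p = 0.308), and here the groups overlapped through extract 3. *Foxa3* and *Onecut1* had like profiles over the 9 arrays (r = 0.89), a description that rests on the same wild-type arrays being high for both.

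*Foxa2*, which in liver supports bile acid handling and the fasting use of fat, was 7.71, 7.80 and 6.42 log2 in wild-type liver. It was 8.31, 8.63 and 5.55 in ob/ob vehicle liver and 7.04, 7.38 and 7.50 with the extract. The ob/ob vehicle group held both the highest and the lowest value of the series, the lowest on the array that stood apart. With all arrays no comparison separated the groups: 0.19 log2 for ob/ob vehicle minus wild type (interval -1.36 to 1.74, adjusted p = 0.928), -0.19 for extract minus ob/ob vehicle (-1.74 to 1.36, 0.978) and -0.00 for extract minus wild type (-1.55 to 1.55, 0.999). Without both arrays that stood apart, the extract group was lower than ob/ob vehicle by a called difference of -1.16 log2 (adjusted p = 0.0483). Without ob/ob vehicle 3 alone the difference was the same size and was not called (adjusted p = 0.296).

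*Foxa1* stayed near the level of silent genes. It was 5.62, 4.91 and 5.32 log2 in wild-type liver, 5.55, 5.68 and 3.17 in ob/ob vehicle liver and 5.35, 5.22 and 5.91 with the extract. Apart from the 3.17 on ob/ob vehicle 3, all values lay within 1 log2 of 5.28, the wild-type mean. Differences were -0.48 (interval -1.75 to 0.79), 0.69 (-0.58 to 1.96) and 0.21 (-1.06 to 1.48) log2 for ob/ob vehicle minus wild type, extract minus ob/ob vehicle and extract minus wild type, with adjusted p of 0.734, 0.860 and 0.905. The first turned to 0.35 and the second to -0.12 without both arrays that stood apart.

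C/EBP-beta is the family member induced by inflammatory signals, cyclic AMP and insulin changes. Its gene *Cebpb* measured 7.70, 8.15 and 7.37 log2 in wild-type liver, 7.09, 7.07 and 6.15 in ob/ob vehicle liver, and 7.88, 8.60 and 8.70 in ob/ob extract liver. All ob/ob vehicle arrays were below all other arrays, and the extract group overlapped wild type.

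The mean of *Cebpb* in extract-treated ob/ob liver was 1.62 log2 above ob/ob vehicle (SE 0.35, interval 0.85 to 2.40, n = 3 a group), a 3.08-fold difference. Its unadjusted p of 8.30e-04 ranked 28 among 22206 clusters. The adjusted p was 0.593 by limma's test, so the difference was not called, like that of every other cluster in this comparison (0% called). Of the 9 members, 1 passed the design text's rule of an unadjusted p under 0.05 with a fold over 1.1, *Cebpb*, against 6.45% of all clusters. In 2 of 9, *Cebpb* and *Cux2*, the groups did not overlap, against 13.6% of all clusters. The difference stayed positive, between 1.31 and 1.88 log2, under all alternatives run, and its adjusted p ran from 0.0420 to 0.990. The 0.0420 came with array weights (difference 1.45), the one setting that called it; without both arrays that stood apart it was 1.31 with an adjusted p of 0.0553.

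Against wild type, ob/ob vehicle liver had a *Cebpb* difference of -0.97 log2 (SE 0.35, interval -1.75 to -0.19, unadjusted p = 0.0191, adjusted p = 0.183). The extract group differed from wild type by 0.65 log2 (interval -0.12 to 1.43, adjusted p = 0.438). The comparisons share the ob/ob vehicle arrays, so the lower value in the one and the higher in the other are not separate measurements.

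*Cebpa*, which encodes the C/EBP of quiescent, differentiated hepatocytes, was 13.61, 13.06 and 10.84 log2 in wild-type liver. It was 12.87, 12.94 and 10.43 in ob/ob vehicle liver and 12.08, 11.41 and 11.67 with the extract. The 2 arrays that stood apart held the lowest values of the series. The difference of ob/ob vehicle from wild type was -0.42 log2 (interval -2.13 to 1.28, adjusted p = 0.837). That of extract from ob/ob vehicle was -0.36 (-2.06 to 1.34, 0.959), and that of extract from wild type -0.78 (-2.49 to 0.92, 0.690). Without both arrays the extract group was lower than wild type by a called difference (-1.62, adjusted p = 0.0108), and lower than ob/ob vehicle by one that missed the threshold (-1.19, 0.0655).

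PROX1, a homeodomain factor that acts as a corepressor for HNF4-alpha and other nuclear receptors, marks hepatocytes and also lymphatic endothelium. *Prox1* was 12.17, 13.05 and 10.11 log2 in wild-type liver, 12.05, 12.67 and 8.63 in ob/ob vehicle liver and 11.34, 11.88 and 11.58 with the extract. Replicate 3 of each vehicle group was far below its partners, and its SD was 1.51 and 2.18 log2 in the vehicle groups against 0.27 in the extract group. The differences were -0.66 (interval -2.81 to 1.49), 0.48 (-1.67 to 2.64) and -0.18 (-2.33 to 1.98) log2 in the order used above, with adjusted p of 0.791, 0.954 and 0.956. The extract difference turned to -0.76 without both arrays that stood apart (unadjusted p = 0.0388, adjusted p = 0.291). The mean of the 5 lymphatic endothelial markers lay between 5.30 and 6.02 log2 on all arrays.

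*Bcl6* encodes the male-biased repressor of the growth hormone circuit, whose promoter windows with STAT letters are printed above. It was 4.23, 4.55 and 7.68 log2 in wild-type liver. In ob/ob vehicle liver it was 5.79, 6.62 and 5.18, and with the extract 6.14, 4.73 and 5.15. The single highest value of the series was wild-type vehicle 3, 3.29 log2 above the mean of the other two wild-type arrays, on an array where most members were low. The other two wild-type values were the lowest of the series and under the mark of silent genes.

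With all arrays, *Bcl6* differed by 0.38 log2 between ob/ob vehicle and wild-type liver (SE 0.80, interval -1.39 to 2.15, adjusted p = 0.862 by limma). Without wild-type vehicle 3 that difference was 1.47 (adjusted p = 0.206), and without both arrays that stood apart it was 1.82 with an adjusted p of 0.0280, a called difference. Without wild-type vehicle 1 it was -0.25 and without wild-type vehicle 2 it was -0.09. Between extract and ob/ob vehicle it was -0.52 (interval -2.29 to 1.25, adjusted p = 0.935), and between extract and wild type -0.15 (-1.92 to 1.62, 0.955), which became 0.95 without wild-type vehicle 3 (adjusted p = 0.547). The sign of the *Bcl6* differences from wild type depended on which wild-type arrays entered, and the one call needed both wild-type vehicle 3 and ob/ob vehicle 3 left out.

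*Cux2* encodes the female-typical repressor. It was 4.51, 4.58 and 4.15 log2 in wild-type liver, 4.26, 4.35 and 4.38 in ob/ob vehicle liver and 4.39, 5.78 and 4.54 with the extract. Only extract 2 lay above the olfactory receptor mark, so on the other 8 arrays *Cux2* was not told apart from silent genes. The differences were -0.08 log2 for ob/ob vehicle minus wild type (interval -0.86 to 0.69, adjusted p = 0.937), 0.57 for extract minus ob/ob vehicle (-0.20 to 1.35, 0.826) and 0.49 for extract minus wild type (-0.29 to 1.27, 0.560). Extract and ob/ob vehicle values did not overlap, though the lowest extract value, 4.39, lay next to the highest vehicle value, 4.38. Without extract 2 the difference from ob/ob vehicle was 0.14 log2.

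**Figure D3:**
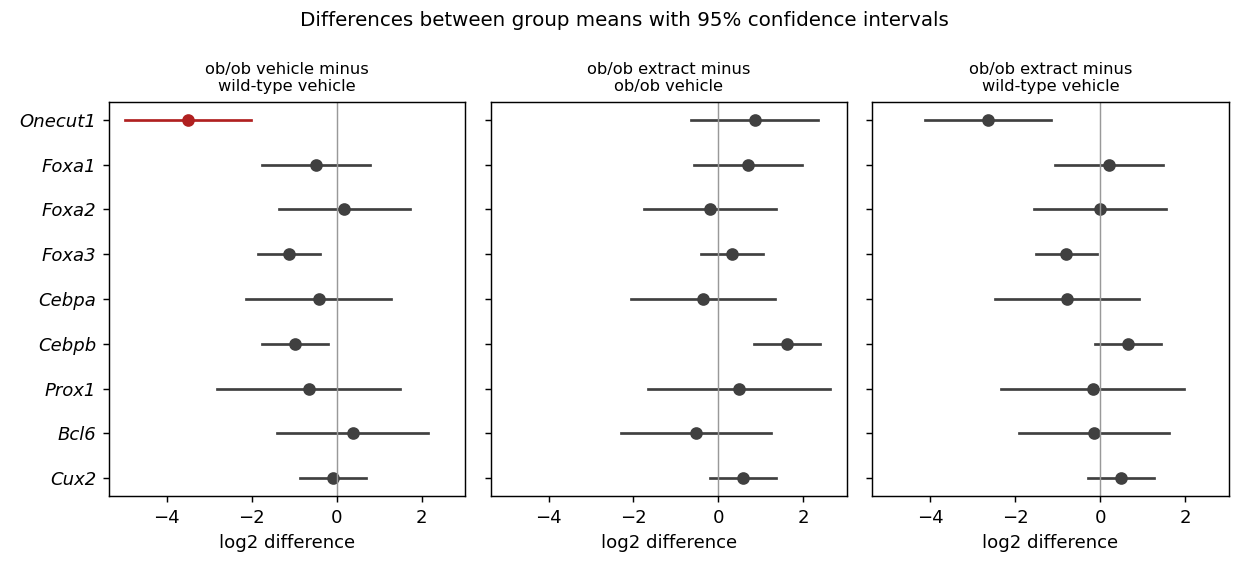
Differences between group means (log2, horizontal axis) with 95% confidence intervals for the 9 genes in each comparison, from the fit to 9 arrays with n = 3 a group; red marks an adjusted p under 0.05. *Onecut1* in ob/ob vehicle minus wild type, at -3.50, is the one red point, and the interval of *Cebpb* in extract minus ob/ob vehicle runs from 0.85 to 2.40.

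Over the 9 members, 3 passed the design text's rule in ob/ob vehicle against wild type, all of them lower (*Onecut1*, *Foxa3* and *Cebpb*), where 17.0% of all clusters passed in either direction. The same 3 were those whose groups did not overlap, against 19.5% of all clusters. The median difference of the members was -0.48 log2 and that of all clusters -0.06, with 7 members negative and 2 positive. In extract against ob/ob vehicle the medians were 0.48 and -0.01, with 6 members positive and 3 negative. Both member medians changed sign without ob/ob vehicle 3: to 0.33 in ob/ob vehicle against wild type, with 5 members positive and 4 negative, and to -0.12 in extract against ob/ob vehicle, with 4 positive and 5 negative. In extract against wild type 0 of 9 were called by limma, where 0.315% of clusters were called lower and 0.977% higher. There 2 members, *Onecut1* and *Foxa3*, passed the design text's rule, both lower, against 14.0% of clusters, and 1 did not overlap, against 21.7%.

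Leaving out wild-type vehicle 3 and ob/ob vehicle 3 together raised the number of called members from 1 to 3 in ob/ob vehicle against wild type (*Onecut1*, *Foxa3* and *Bcl6*), from 0 to 1 in extract against ob/ob vehicle (*Foxa2*) and from 0 to 2 in extract against wild type (*Onecut1* and *Cebpa*). Calls over the whole table rose too, from 658 to 1745, from 0 to 360 and from 287 to 595. In that setting *Foxa1*, *Prox1* and *Bcl6* changed sign in at least one comparison, and the other 6 members kept the sign of all their differences.

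**Figure D4:**
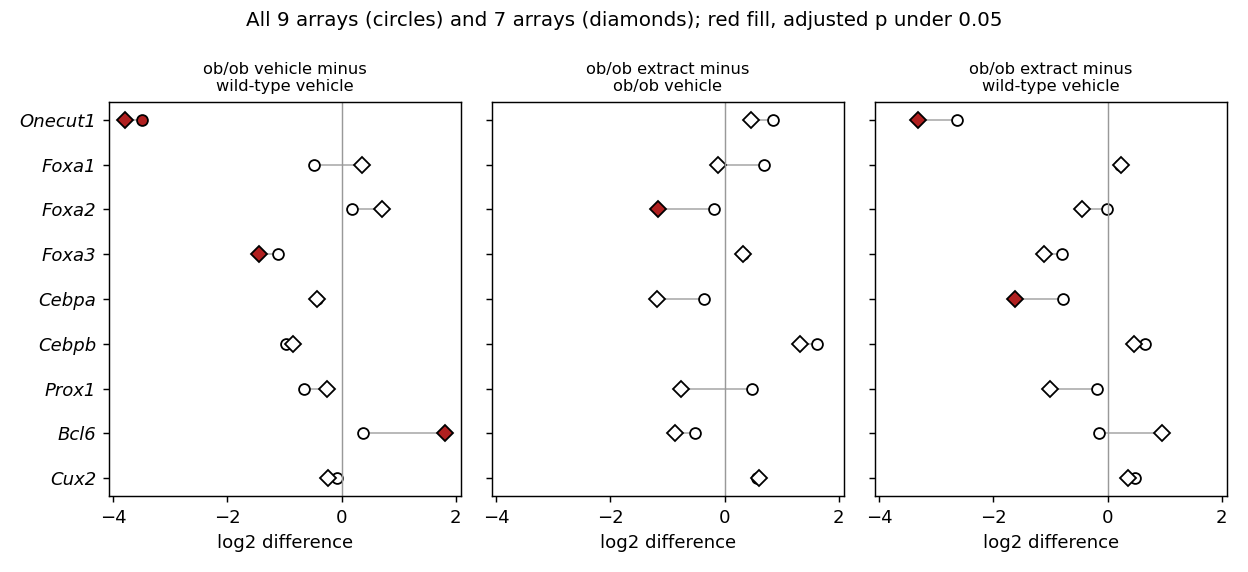
Log2 differences (horizontal axis) of the 9 genes with all 9 arrays (circles) and with the 7 arrays left without wild-type vehicle 3 and ob/ob vehicle 3 (diamonds); red fill marks an adjusted p under 0.05 in that fit. *Bcl6* moves from 0.38 to 1.82 in the first panel and *Foxa2* from -0.19 to -1.16 in the second, while *Cebpb* stays at 1.31 or above in the second.

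Members also varied together across arrays. *Foxa2* and *Prox1* correlated at r = 0.92, *Cebpa* with *Prox1* at 0.85 and with *Foxa2* at 0.84, over 9 arrays that share the shift of 2 low arrays. *Foxa2*, *Prox1*, *Cebpa* and *Foxa1* also followed the interquartile range of the arrays, at r = 0.79, 0.60, 0.53 and 0.49. *Onecut1* and *Foxa3* did not, at -0.24 each, nor did *Bcl6* (-0.20), *Cebpb* (0.18) or *Cux2* (0.17). These are descriptions over arrays that also differ by group, and the part of array quality in them was not tested.

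Of 39 other liver transcription factors measured, 2 were called higher and 1 lower in ob/ob vehicle against wild-type liver. Over all clusters 2.28% were called higher and 0.680% lower. The median difference of the 39 was -0.08 log2 against -0.06 for all clusters. *Trim24*, a coregulator that restrains retinoic acid signalling, rose by 2.28 log2 (SE 0.49, adjusted p = 0.0391), from 9.09, 7.70 and 8.39 on the wild-type arrays to 11.07, 11.46 and 9.49. *Tox*, an HMG-box factor counted as female-biased in mouse liver, rose by 2.21 (adjusted p = 0.0449), from a mean of 5.11 to one of 7.32, with its lowest ob/ob vehicle value, 6.16, above its highest wild-type value, 5.28. All 3 wild-type arrays and ob/ob vehicle 3 were under the olfactory receptor mark for *Tox*, so the size of its difference may be understated. *Mlxipl*, which encodes the sugar-responsive factor ChREBP, fell by 3.35 (adjusted p = 0.0267). *Hnf4a*, the nuclear receptor at the centre of the hepatocyte network, differed by -0.56 log2 (adjusted p = 0.695), with its lowest value, 9.58, on ob/ob vehicle 3. When each of the 9 arrays was left out in turn, the call of *Trim24* held only without wild-type vehicle 1 or ob/ob vehicle 3 (adjusted p from 0.00204 to 0.151 over the 9 fits), that of *Tox* only without ob/ob vehicle 3 (0.00280 to 0.154), and that of *Mlxipl* was lost without wild-type vehicle 2 or 3, ob/ob vehicle 1 or extract 2 (0.0116 to 0.117). Leaving out both arrays that stood apart, 5 of the 39 were called higher (*Onecut2*, *Atf5*, *Zhx2*, *Tox* and *Trim24*) and 1 lower (*Mlxipl*). Of all 22206 clusters that setting called 1267 higher and 478 lower.

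With the extract against ob/ob vehicle 6.45% of all clusters passed the design text's rule in either direction, and 0% were called by limma. Of the 39 factors 0 were called there by limma, while 5 were higher and 1 lower at an unadjusted p under 0.05. The smallest p was that of *Foxo1*, the insulin-restrained activator of gluconeogenesis (1.09 log2, adjusted p = 0.707). *Nr1i2* and *Nr1i3*, which encode the xenobiotic receptors PXR and CAR, followed at 0.95 and 1.49 log2 (adjusted p = 0.709 and 0.741). *Nr1i2* was 9.11, 9.63 and 8.56 log2 on the ob/ob vehicle arrays and 10.04, 10.19 and 9.91 on the extract arrays, which did not overlap. Against wild type 0.977% of all clusters were called higher in the extract group. Of the 39, 3 were called higher there by limma: *Trim24* (3.06, adjusted p = 0.0153), *Foxo1* (1.53, 0.0432) and *Nr1i2* (1.39, 0.0495). With the replicate number as a block over 9 arrays 1 of these 3 calls, that of *Trim24*, was kept; *Foxo1* and *Nr1i2* had adjusted p of 0.0606 and 0.0570, though the numbers did not pair the extract group with wild type. With single arrays left out the call of *Trim24* was lost without wild-type vehicle 2 or 3 or any extract array (adjusted p up to 0.0914), that of *Foxo1* held only without wild-type vehicle 1 or ob/ob vehicle 3 (up to 0.208) and that of *Nr1i2* only without ob/ob vehicle 2 or 3 (up to 0.222). Leaving out both arrays that stood apart, 0 were called higher and 2 lower (*Onecut2* and *Zhx2*) against ob/ob vehicle, and 4 higher and 2 lower against wild type. Of all 22206 clusters that setting called 48 higher and 312 lower against ob/ob vehicle, and 397 higher and 198 lower against wild type.

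Growth hormone signalling and response genes showed 0 calls by limma among 12 in any of the 3 comparisons. In extract against ob/ob vehicle 0% of all clusters were called. In ob/ob vehicle against wild type 1 was higher and 2 lower at an unadjusted p under 0.05. The design text's rule was passed there by 17.0% of all clusters in either direction. *Igfals*, which encodes the stabiliser of circulating IGF1, had means of 10.31 log2 in wild-type and 8.20 in ob/ob vehicle liver (difference -2.11, unadjusted p = 0.0111, adjusted p = 0.142). *Socs2*, a STAT5-induced brake on the receptor, was between 7.15 and 8.18 in wild-type and between 6.44 and 6.54 in ob/ob vehicle liver (difference -1.21, unadjusted p = 0.0148, adjusted p = 0.161). The receptor gene *Ghr* differed by 0.00 log2 (SE 0.59) and *Stat5b* by -0.38 (SE 0.23). *Ghr* was 16.28, 15.44 and 15.54 in wild-type liver and 16.68, 16.21 and 14.38 in ob/ob vehicle liver. The 14.38 was on ob/ob vehicle 3, an array that stood apart.

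Genes with sex-biased expression in liver lie downstream of the STAT5, BCL6 and CUX2 circuit. Between genotypes 16 of 25 male-biased genes were called lower and 14 of 27 female-biased genes higher, with medians of -2.75 and 2.13 log2. Without both arrays that stood apart the counts were 16 and 15. Over all clusters, with all arrays, 0.680% were called lower and 2.28% higher. Without both arrays 478 of 22206 clusters were called lower and 1267 higher. These lists were chosen with earlier results of these data known, so their counts are not independent of those results. With the extract and all arrays 0 of either list were called against ob/ob vehicle by limma, where 0% of all clusters were. At an unadjusted p under 0.05, 1 male-biased gene was lower, and 1 female-biased gene was higher and 2 lower. The design text's rule was passed there by 6.45% of all clusters in either direction. Without both arrays that stood apart 1 male-biased gene, *Mup20*, was called higher (1.52 log2, limma adjusted p = 0.0426), as were 48 of 22206 clusters. *Bcl6* and *Cux2* themselves, at the dim levels given above, did not show a called difference between genotypes with all arrays.

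Targets that the liver-enriched factors are known for gave these counts. Of 19 classical hepatocyte genes 0 were called in any comparison by limma with all arrays. Among them *Alb* and *Ttr* lay between 19.78 and 19.93 log2 on every array, at the top of the scale, where a rise cannot show. At an unadjusted p under 0.05, 4 of the 19 were lower in ob/ob vehicle against wild type. The design text's rule was passed there by 17.0% of all clusters in either direction, and by 6.45% in extract against ob/ob vehicle, where 0% were called by limma. In the latter comparison 3 of the 19 were higher at an unadjusted p under 0.05. Those 3 were *Gys2*, the liver glycogen synthase (1.02 log2, adjusted p = 0.593), *Igfbp1*, a FOXO and FOXA target that binds IGF1 (2.76, 0.767), and *Pck1*, the gluconeogenic enzyme (0.72, 0.767). *Igfbp1* was 6.52, 6.59 and 4.81 log2 in ob/ob vehicle liver and 8.13, 8.94 and 9.13 with the extract, but it spread from 6.33 to 12.16 among wild-type livers. Without both arrays that stood apart 1 gene was called higher in ob/ob vehicle against wild type, the glucose transporter gene *Slc2a2* (1.93 log2, adjusted p = 0.00670), and 1 in extract against ob/ob vehicle, *Igfbp1* (2.18, 0.0488). Of all 22206 clusters that setting called 1267 higher in the former comparison and 48 in the latter. With array weights *Slc2a2* was called higher (2.00, 0.0257) and *Apoa1* lower (-1.81, 0.0320) in ob/ob vehicle against wild type. Of 22 PPARA target genes 8 were called higher in ob/ob vehicle liver with all arrays, where 2.28% of all clusters were. Without both arrays that stood apart 15 were, beside 1267 of all 22206 clusters. With the extract against ob/ob vehicle 0 of the 22 were called in either case. With all arrays 1 was higher and 1 lower there at an unadjusted p under 0.05.

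Acute phase genes are driven by C/EBP-beta and STAT3 in inflamed liver. Of 23 measured, 6 were called higher in ob/ob vehicle against wild-type liver, beside 2.28% of all clusters. With the extract against ob/ob vehicle 0 were called by limma, where 0% of all clusters were. The design text's rule was passed there by 6.45% of all clusters in either direction. In the extract comparison 19 of 23 differences were negative and 4 were lower at an unadjusted p under 0.05. The median was -0.66 log2 and became -0.17 without both arrays that stood apart, where 1 gene was called lower, *Il1rn* (-1.24, adjusted p = 0.0449). In ob/ob vehicle against wild type the same setting gave 7 called higher and 2 lower (*Fgb* and *Itih3*), and the median went from 1.18 to 0.16. Of all 22206 clusters that setting called 1267 higher and 478 lower there, and 312 lower in extract against ob/ob vehicle. *Lbp*, the endotoxin-binding protein gene, was 11.53, 11.40 and 11.03 log2 in ob/ob vehicle liver and 9.53, 10.76 and 10.27 with the extract (-1.13, adjusted p = 0.707). *Saa2* reached 18.75 log2 on ob/ob vehicle 3, against 10.61 and 11.81 on the other arrays of that group. The mean of the 23 genes was 15.77 on ob/ob vehicle 3, against 13.93 and 13.99 on those other arrays. *Cebpb* differed by -0.97 log2 in ob/ob vehicle against wild type and by 1.62 in extract against ob/ob vehicle. Neither was called (limma adjusted p = 0.183 and 0.593), and the part of C/EBP-beta in these genes was not tested.

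With all arrays no marker of another liver cell type was called with the extract against ob/ob vehicle. That says nothing about cell types, since 0 of 22206 clusters were called there. The mean of 10 Kupffer cell and macrophage markers ran from 6.88 to 7.04 log2 on ob/ob vehicle arrays and from 5.65 to 6.66 on extract arrays. With the extract 9 of 10 were lower, 4 of them at an unadjusted p under 0.05 and 0 called by limma. Over all clusters 6.45% passed the design text's rule in that comparison, in either direction. *Cd5l*, a macrophage secreted protein gene, differed by -2.13 log2 (adjusted p = 0.707). Macrophages also express *Cebpb*, whose difference ran the other way; the part of these cells in it was not tested. The mean of 6 cholangiocyte markers, cells that express *Onecut1*, ran from 4.50 to 4.75 log2 in wild-type, 4.57 to 4.69 in ob/ob vehicle and 4.54 to 4.79 in extract livers, and 3 of the 6 were under the olfactory receptor mark on all 9 arrays. All 3 B cell markers measured and 4 of 5 T cell markers were under it on every array.

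Profiles most like *Bcl6* and *Cux2* were sought among 12317 clusters with a range of at least 1 log2, by Pearson correlation over the 9 arrays. For *Bcl6* the closest was *Egr1*, an immediate early gene (r = 0.943), at 5.15, 5.33 and 8.15 log2 in wild-type, 5.94, 6.96 and 5.01 in ob/ob vehicle and 6.28, 4.85 and 5.04 in extract livers. *Spaca4* (0.919), *Armc5* (0.894), *Lgr5* (0.892) and *Bmp10* (0.891) followed, and *Rilpl2* (-0.932), *Tnn* (-0.929), *Csrnp2* (-0.897), *Hopx* (-0.890) and *Zfp869* (-0.886) ran most opposite. All 5 alike genes had their highest value, and all 5 opposite genes their lowest, on wild-type vehicle 3. *Spaca4*, *Armc5*, *Csrnp2*, *Tnn* and *Rilpl2* were under the olfactory receptor mark on all 9 arrays.

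For *Cux2* the closest were *Lrit2* (r = 0.947), *Macroh2a2* (0.920), *Gzmb* (0.909), *Med4* (0.893) and *Arg2* (0.885), each highest on extract 2. The most opposite were *Mrps36* (-0.956), *Tuba3b* (-0.948), *Cyp3a11* (-0.937), *Tnfrsf18* (-0.916) and *T2* (-0.888), each lowest on extract 2. *Cyp3a11*, a drug-metabolising cytochrome P450 gene, was between 19.78 and 19.93 log2, at the top of the scale, on the other 8 arrays and 18.54 on extract 2. *Gzmb*, *Arg2*, *Tnfrsf18* and *T2* were under the olfactory receptor mark on all 9 arrays.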

How the data were processed

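The authors deposited 1 log2 value per transcript cluster and array, for 22206 clusters, using SST-RMA in the Transcriptome Analysis Console (version 4.0.2) per the design text; values were rounded to 2 decimals and ran from 1.86 to 19.93. SST-RMA counters the compression of fold changes, so the size of a difference depends on that step. The array's genome build is not given in the sources used here. Each of the 9 columns was 1 array, and for arrays their number limits the precision.

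The 3 group means were estimated from all 9 arrays together with limma 3.58.1 in R 4.3.3 (lmFit and eBayes, 6 residual and 4.45 prior degrees of freedom), two-sided, with Benjamini-Hochberg adjustment over all clusters and calls at an adjusted p under 0.05. This stands for the one-way analysis with empirical Bayes correction that the design text names. The design text's rule, a fold above 1.1 at an unadjusted p under 0.05, is also reported. Its shares of all clusters count both directions together. List counts at an unadjusted p under 0.05 are given by direction and without a fold limit, so the measures differ. The fit was tested on simulated data. GEO's platform annotation gave 19572 clusters 1 symbol, 0 several and 2634 none.

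The members and lists were chosen with earlier results of these data known. Named genes are the 9 members, up to 4 per list by smallest p in a comparison, and the 5 most alike and 5 most opposite profiles for *Bcl6* and *Cux2*, leaving out predicted, receptor and small RNA genes; *Hnf4a*, *Ghr*, *Stat5b*, and genes called only with other arrays or weights, fall outside that rule and were chosen after their values were seen. Stat5a, Stat5b, Tox and Creb3l3 are each in more than one list. Promoter windows came from RefSeq (GRCm38.p6).

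The groups share replicate numbers, which the labels do not explain. After subtraction of the group means, same-numbered wild-type and ob/ob vehicle arrays correlated at 0.256, 0.262 and 0.450, each over the limit of 0.1 set for pairing. The 0.450 was between the arrays that stood apart. Deviations from a group mean cancel within the group, so these correlations depend on one another and are not separate evidence of pairing. The main fit had no block, and fits with the replicate number as a block are given beside it. Between extract and ob/ob vehicle the correlations were -0.130, 0.0157 and -0.106, and between extract and wild type -0.208, -0.0412 and -0.143. Alternatives were quantile normalization, median centring, a filter leaving out the lowest 30% of clusters, only the groups compared, the replicate number as a block, array weights, each array left out, and both arrays that stood apart left out; the block within 6 arrays, and list counts, called list genes and member medians under other settings, were added after the data were seen.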

Additional observations from a re-analysis of the deposited data

How the results depend on the processing

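Of 441 alternative values of single members, 391 kept direction and side of the threshold, 6 lost a call, 9 gained one and 35 changed sign; none of the changes of sign was in *Onecut1*, *Foxa3* or *Cebpb*. With only the groups compared, 0 members were called in ob/ob vehicle against wild type (*Onecut1* -3.50). Members called in ob/ob vehicle against wild type, extract against ob/ob vehicle and extract against wild type numbered 2, 1 and 1 with array weights, 3, 1 and 2 without both arrays that stood apart, and 3, 1 and 2 under the design text's rule. Leaving out single arrays gave 0 to 1 called members against wild type in either ob/ob group, and *Onecut1* ran from -4.18 to -2.99 in ob/ob vehicle. With the replicate number as a block, *Onecut1* kept its call (limma adjusted p = 0.0287 over 9 arrays and 0.00156 over the 6 arrays of the vehicle groups). No other member's call changed, and the whole table gave 579 and 881 calls.

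Signs changed as follows, and the cause was not tested. With array weights the log2 difference was 0.25 for *Foxa1* in ob/ob vehicle against wild type, -0.000395 for *Foxa1* and -0.53 for *Prox1* in extract against ob/ob vehicle, and 0.27 for *Bcl6* in extract against wild type. Without both arrays these were 0.35, -0.12, -0.76 and 0.95. Quantile normalization gave -0.0876 for *Foxa2* and 0.0759 for *Cux2* in ob/ob vehicle against wild type; median centring gave 0.0367 for *Cux2* there and 0.14 for *Foxa2* in extract against wild type. Over single arrays left out, ob/ob vehicle minus wild type ran from -0.92 to 0.33 for *Foxa1*, -0.38 to 1.16 for *Foxa2*, -1.26 to 0.40 for *Cebpa*, -1.49 to 0.58 for *Prox1* and -0.25 to 1.47 for *Bcl6*. Extract minus ob/ob vehicle ran from -0.12 to 1.13 for *Foxa1*, -1.16 to 0.38 for *Foxa2*, -1.19 to 0.07 for *Cebpa* and -0.76 to 1.26 for *Prox1*. Extract minus wild type ran from -0.45 to 0.24 for *Foxa2*, -1.01 to 0.46 for *Prox1* and -0.78 to 0.95 for *Bcl6*.

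Calls over all clusters in ob/ob vehicle against wild type went from 658 to 207 with only these groups, 2137 with array weights and 1745 without both arrays, ran from 147 to 1679 over single arrays left out, and after quantile normalization split into 290 higher and 256 lower. In extract against ob/ob vehicle they went from 0 to 106 with weights and 360 without both arrays, and from 0 to 51 over single arrays left out. In extract against wild type they went from 287 to 796 and 595, and from 77 to 598 over single arrays left out, and quantile normalization gave 153 higher and 97 lower. Median centring moved the median of all clusters from -0.06 to 0.06 and, in extract against wild type, from -0.05 to 0.09. Dim signal limits *Cux2*, *Bcl6* and *Foxa1*.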
